A study of Vitis vinifera with 24 samples.

Results

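Sangiovese vines stripped of their basal leaves before flowering (PB, pre-bloom defoliation) were compared with untreated vines (C) at the end of veraison (EV). The comparison rests on 6 arrays, 3 PB and 3 C, of the 24 arrays in the series, chosen by the treatment and stage in the sample titles. The study describes its vines as adult Vitis vinifera cv Sangiovese, clone 12T grafted on SO4, grown in the field in 1 row. The C arrays at EV carry another treatment text (below), and whether their vines stood in that row is not given. In PB the main and lateral leaves of the 6 basal shoot nodes were taken off by hand on Julian Day (JD) 147, and C vines kept all their leaves. The study pooled berries over the 3 vines of a block for each array, and their total RNA was labelled with Cy3. The other 18 arrays covered C and PB at the beginning of veraison (BV), C and PB at harvest (H), and vines defoliated on JD 211, at veraison (V), at EV and H.

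Veraison is the onset of ripening in the grape berry. Flesh softens, sugars accumulate, malic acid is consumed, and in red cultivars anthocyanins colour the skin, while genes of photosynthesis and early fruit growth are turned down. Basal leaves are the main source of sugars for the inflorescence around flowering, and their removal also exposes the young clusters to light. The comparison at EV asks how a treatment applied before flowering left the berry transcriptome at the close of colour change.

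The array held 117999 grapevine probes with values and 19091 probes of random sequence, which match no grapevine gene and measure background hybridisation. Values were fluorescence intensities and are given on the log2 scale. No source used here tells which gene each grapevine probe belongs to, so results are given per probe and by identifier, without gene functions, and a gene may be counted through several probes. Because each pool of berry RNA mixes cell types, fewer cells of a type and less RNA per cell cannot be told apart.

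The labels set the C samples apart from the others in a way that bears on every value. The treatment text of the 3 C arrays at EV, and of the 3 C arrays at H, describes the control arm of a cluster-thinning experiment, whereas PB, V and the C arrays at BV carry the text of the defoliation experiment. The label set and the lack of defoliation cannot be told apart at EV. C at EV also had the highest group mean of the random-sequence probes in the series. Averaged per array, their log2 intensity was 7.15, 6.31 and 6.73 on the C arrays (mean 6.73 ± 0.42, SD, n = 3). On the PB arrays it was 5.94, 6.00 and 5.90 (5.94 ± 0.05, SD, n = 3). The groups did not overlap, with a difference of -0.79 (exact permutation test, two-sided p = 0.1, the smallest that 3 against 3 allows). The 3 V arrays at EV lay at 5.94 to 5.95 and the 6 arrays at BV at 5.77 to 6.03.

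Replicates were also closer within PB than within C. Over the grapevine probes the PB arrays correlated at 0.964 to 0.977 with each other, the C arrays at 0.760 to 0.912, and PB with C arrays at 0.655 to 0.899. Replicate 2 of C stood nearest to PB (0.885 to 0.899). It correlated less with replicates 1 and 3 of C (0.760 and 0.872) than with any PB array. The root mean square SD between replicates was 0.45 in PB and 1.01 in C on the log2 scale. Probes next to each other in the numbering correlated at 0.384, 0.589 and 0.485 within the C arrays and at 0.640 to 0.655 within the PB arrays. The p-values below measure the spread between these pools.

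At EV, 6915 probes differed between PB and C (5.86% of those tested; limma on the 6 arrays, Benjamini-Hochberg adjusted p below 0.02 and at least 2-fold). Of these, 4771 were higher in PB (4.04%) and 2144 were lower (1.82%), so 69% of the calls were increases. The lowest adjusted p was 0.00295, and 39808 probes had an unadjusted p below 0.05. The number of calls changed widely when 1 array was left out. It was 35903 without replicate 2 of C and 5763 without replicate 1 of C. It was 0 without replicate 3 of C or without any one of the 3 PB arrays. In those fits 26366 to 29467 probes still had an unadjusted p below 0.05. Their lowest limma adjusted p ranged from 0.0239 to 0.0386, over the threshold of 0.02. SAM, the method of the study, was computed here per probe and without a filter. It called 27306 probes at a false discovery rate of 2% and 2-fold, 16318 higher and 10988 lower, and these included all 6915. The study counted genes, so this count of probes cannot be set directly against its own. With the replicate number as a block, limma called 2002 probes, 1638 higher and 364 lower. Whether equal replicate numbers mark the same field block is not given in the labels. With the mean level of the random-sequence probes entered as a covariate, limma called 0 probes, with 26635 at an unadjusted p below 0.05 and a lowest adjusted p of 0.0255. That level did not overlap between the groups (5.90 to 6.00 in PB, 6.31 to 7.15 in C), so it is largely confounded with treatment. The count of 0 therefore does not tell which part of the difference goes with the level.

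Many more probes separated the groups than passed the test. The 3 PB arrays lay entirely above or entirely below the 3 C arrays at 46542 probes (39.4%), above at 23957 (20.3%) and below at 22585 (19.1%). The balance depended on the scaling, with 20646 above and 27814 below under MAD scaling, and 21753 above and 25557 below after quantile normalization of the grapevine probes. A mean difference of at least 2-fold was measured at 49826 probes, of which 42911 were not called. The 95% confidence interval of the difference stayed within 2-fold for 6489 probes (5.5%), and its median reach to either side was 1.09 on the log2 scale. Most grapevine probes were therefore neither called nor bounded to a change of less than 2-fold.

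**Figure D1:**
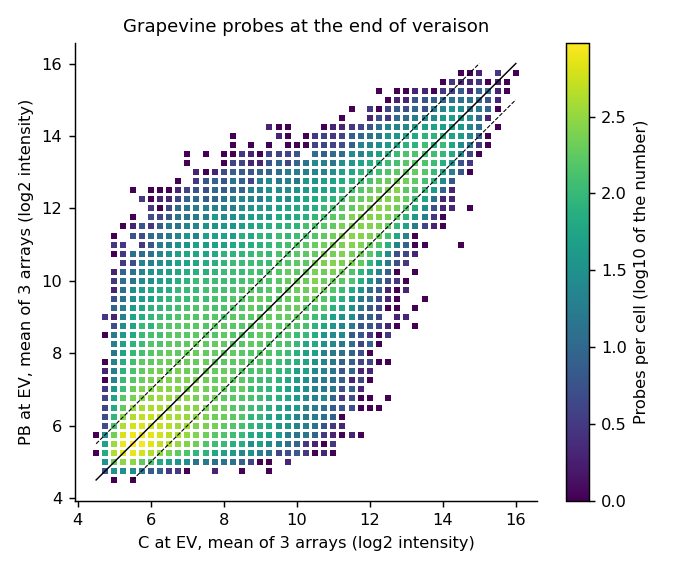
Mean log2 intensity of the 3 PB arrays (y axis) against that of the 3 C arrays (x axis) at EV for all 117999 grapevine probes, with colour giving the log10 of the number of probes per cell. The solid line marks equality and the dashed lines 2-fold differences, beyond which 27392 probes lay on the PB side and 22434 on the C side.

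The probes called higher in PB had a median difference of 3.03 on the log2 scale (8.19-fold), with a median standard error of 0.42. Their lower and upper quartiles were 2.48 and 3.72, and the whole range was 1.62 to 6.77. Of the 4771, 2450 were at least 8-fold higher (51.4%) and 181 at least 32-fold. Their median log2 intensity was 9.36, 9.66 and 9.38 on the PB arrays and 5.84, 6.44 and 5.89 on the C arrays. The 3 PB arrays stayed within the range of the 6 BV arrays or just above it (9.03 to 9.60 at BV), and the 3 V arrays at EV lay at 9.25 to 9.52. These probes were chosen on the C and PB arrays at EV, so the gap between those groups is a description.

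The probes called lower in PB showed the mirror arrangement. Their median difference was -2.92 (7.58-fold lower), the quartiles were -3.58 and -2.41, and the range was -6.04 to -1.62. At least 8-fold decreases made up 998 of the 2144 (46.5%), and 27 were at least 32-fold. Median log2 intensity was 6.71, 6.85 and 6.59 on the PB arrays and 10.70, 9.29 and 10.07 on the C arrays. The arrays at BV lay at 6.84 to 7.21 and V at EV at 6.64 to 6.75, again near PB. Every called probe differed from the PB mean by at least 2-fold on each C array, with median differences for the higher list of 3.21, 2.68 and 3.11 and for the lower list of -3.51, -2.35 and -2.97. Replicate 2 of C, the array nearest to PB, had the smallest of the 3 values in both lists. The group mean of C at EV was the lowest of the 8 groups for 88% of the higher list, beside 28.9% of all probes. It was the highest for 95.8% of the lower list, beside 24.9% of all probes. PB at EV was the highest group for 25.4% of the higher list and the lowest for 27.7% of the lower list. Both lists were chosen on these groups, so the shares are a description.

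**Figure D2:**
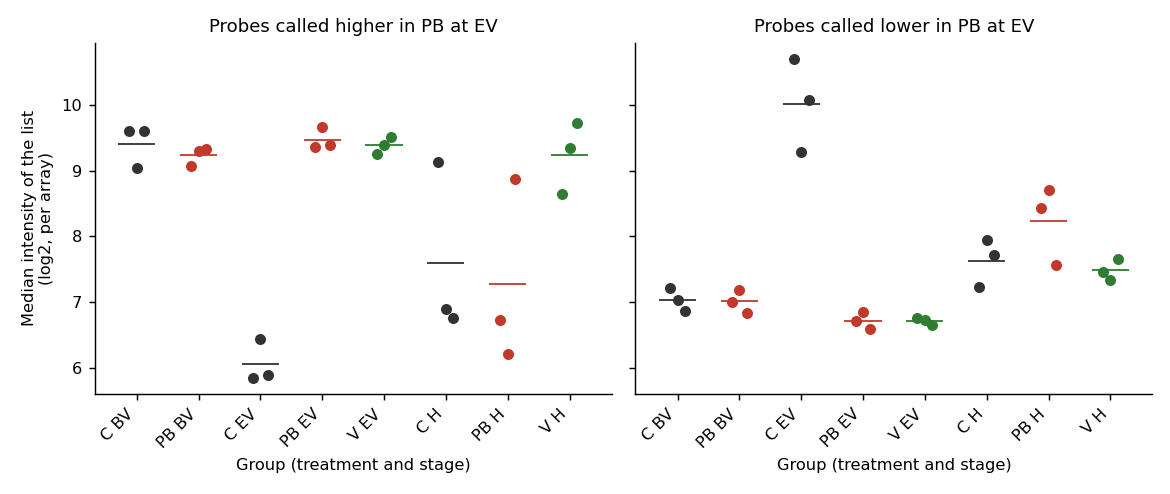
Median log2 intensity (y axis) of the 4771 probes called higher (left) and the 2144 called lower (right) in PB at EV, for each of the 24 arrays by treatment and stage (x axis), with points as arrays and lines as means of 3. C at EV sits at 5.84 to 6.44 and at 9.29 to 10.70, away from PB and V at EV, and the arrays at H spread between 6.20 and 9.73 in the left panel. The lists were chosen on the C and PB arrays at EV.

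At harvest both lists were spread widely. The median of the higher list ran from 6.20 to 9.73 over the 9 arrays and that of the lower list from 7.23 to 8.71. This spread went with the random-sequence probes. By their mean level the 18 arrays outside the comparison fell into a cluster of 4 arrays at 6.26 to 6.56, replicates 2 and 3 of C and replicates 1 and 2 of PB at H, and a cluster of 14 at 5.77 to 6.03. In the 4 arrays the higher list had medians of 6.20 to 6.89 and in the 14 arrays medians of 8.64 to 9.73. The lower list had medians of 7.72 to 8.71 in the 4 and 6.64 to 7.66 in the 14.

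Within the 14 arrays, the median of the higher list was not detectably related to the background level (r = -0.247 by Pearson, permutation p = 0.4, adjusted 0.4 over the 2 lists; rho = -0.138 by Spearman, p = 0.64, adjusted 0.64). Leaving out the 2 arrays of the most distant random-probe level gave r = -0.0398. For the lower list r was 0.521 (permutation p = 0.056, adjusted 0.11 over the 2 lists) and rho 0.49 (p = 0.076, adjusted 0.15), with r = 0.437 without the 2 farthest. Within the 6 arrays at BV, the lower list gave r = 0.933 (exact permutation p = 0.0042, adjusted 0.0084) and rho = 0.943 (exact p = 0.017, adjusted 0.034), and r = 0.924 without the 2 farthest. The higher list there gave r = 0.0553 (exact permutation p = 0.88) and rho = -0.257 (exact permutation p = 0.66). The 14 arrays were set apart by the random-probe level itself and mix treatments and stages, and the 6 at BV mix treatments. The permutation p-values are therefore descriptive. At BV the lower list was dim. Its medians of 6.84 to 7.21 lay under the random-probe 95th percentile of the same array (6.98 to 7.89), where probes carry much background. Random-sequence and grapevine probes are not independent measures here. The quartiles of all rows together differed between the 24 arrays by at most 0.000659 on the log2 scale, against up to 0.392 for the grapevine probes and 2.17 for the random-sequence probes taken alone.

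**Figure D3:**
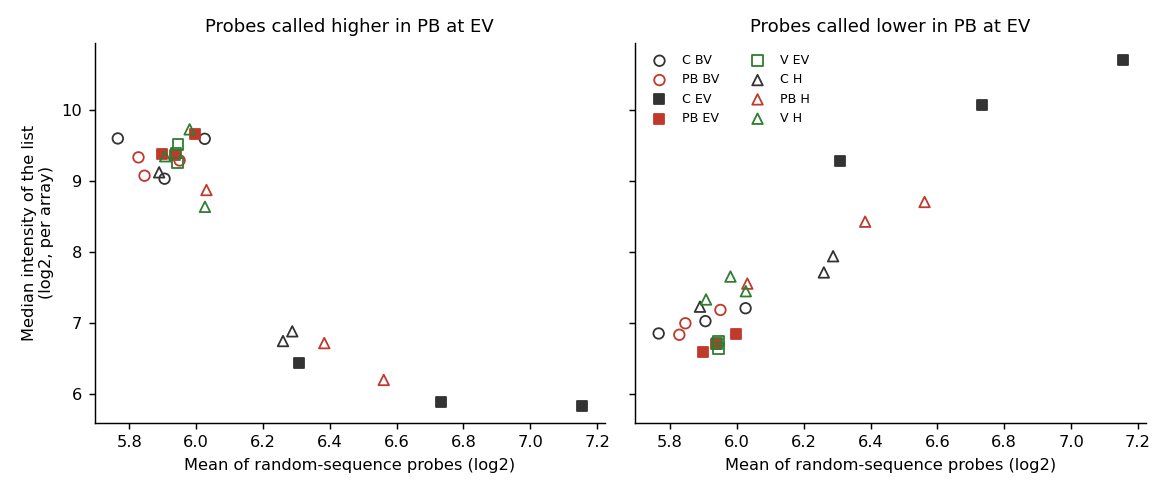
Median log2 intensity of the probes called higher (left) and lower (right) in PB at EV (y axis) against the random-sequence probes' mean on the same scale (x axis), 1 point per array for all 24 arrays. The 3 C arrays at EV and 4 arrays at H have random-probe levels of 6.26 or more and lie low in the left panel and high in the right panel.

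Most probes called higher lay above a background percentile on the PB arrays and not above it on the C arrays. The lists were chosen on these arrays and the percentile was higher on the C arrays, so the shares below are a description. The median of the higher list lay under the random-sequence mean on C replicates 1 (5.84 against 7.15) and 3 (5.89 against 6.73). On replicate 2 it lay just over that mean (6.44 against 6.31). The 95th percentile of the random-sequence probes stood at 10.61, 8.53 and 9.62 on the C arrays and at 7.50, 7.68 and 7.35 on the PB arrays. Grapevine probes above it made up 25.7%, 48.7% and 36.6% on the C arrays and 58.7% to 63.1% on the PB arrays. Of the 4771 probes called higher, 3613 (75.7%) were above that percentile on all 3 PB arrays and on no C array, and 106 (2.22%) were above it on all 6. Of the 2144 called lower, 441 (20.6%) were above it on all 6, 355 (16.6%) on the C arrays only, and 440 (20.5%) on none. Over all grapevine probes the shares were 23% on all 6, 9.2% on all 3 PB and no C array, 0.342% on all 3 C and no PB array, and 31.2% on none, so that the share of the lower list above it on all 6 was near that of all probes.

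A level that is not above background gives only a bound on the fold. With C held at no less than its 95th percentile, 4030 of the higher probes (84.5%) had a bound only. Of these bounds 578 were at least 2-fold and 2469 were under 1-fold, so that the latter give no fold at all, and the list's median with bounds in place fell to -0.12. The lower list had a median of -2.47, with 895 probes bounded (41.7%). Both medians leave out the probes above the percentile on no array, 58 of the higher list and 440 of the lower (20.5%), for which neither side is above background. Held instead at the mean log2 intensity of the background probes of each array, 2026 of the higher probes (42.5%) had a bound only and the median was 2.64 (6.25-fold). The lower list then had 271 bounded probes (12.6%) and a median of -2.87 (7.31-fold lower). These bounds were added after the intensities had been seen.

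Decreases outnumbered increases at the 27196 probes above the 95th percentile on all 6 arrays. Because that percentile was higher on the C arrays, this requirement itself removes probes that are low in C, and the split below is a description of the probes it leaves. Of these, 547 were called (2.01%), 106 higher and 441 lower in PB, and the median difference of all these probes was -0.40, against 0.014 over all probes tested. A fit to these probes alone called 3092, of which 596 were higher and 2496 lower. The random-sequence probes themselves, fitted separately, gave 620 calls of 19091 (3.25%), 8 higher (0.0419%) and 612 lower (3.21%) in PB, with 5385 at an unadjusted p below 0.05. That count was 4668 without replicate 2 of C and 0 without replicate 3 of C or without any one PB array.

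The differences were then set by how bright each probe was at BV, on arrays that do not enter the comparison. Probes were put in 4 equal tiers. In tier 1, the dimmest, 29 probes were called higher (0.0983% of the tier) and 673 lower (2.28%), beside 4.04% and 1.82% of all probes, with a median difference of -0.30. In tier 2, 1337 were higher (4.53%) and 1099 lower (3.73%), with a median of -0.019. In tier 3, 2378 were higher (8.06%) and 338 lower (1.15%), and the median was 0.41. In tier 4, the brightest, 1027 were higher (3.48%) and 34 lower (0.115%), with a median of 0.23. By median, the dimmest probes were lower in PB and the probes of the brighter tiers higher. Replicate 1 of C weighed most on these medians. Without it they were 0.031 in tier 2, 0.15 in tier 3 and 0.090 in tier 4.

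By median, probes that rose from BV to H in C were lower in PB at EV and probes that fell were higher. Ripening direction was taken from C at BV and C at H, which are not in the comparison, with the same thresholds. C at BV and C at H carry different treatment texts, so this axis crosses the same change of label set as PB and C at EV. The axes from PB and to V at H, given below, stay within the defoliation text. Of the 4584 probes that rose from BV to H (3.88% of all), 18 were called higher in PB at EV (0.393%) and 99 lower (2.16%), beside 4.04% and 1.82% of all probes. Their median difference was -0.47, against 0.014 for all probes. Their median log2 intensity was 8.15 in C at BV, 9.17 in C at EV, 8.73 in PB at EV and 10.69 in C at H. By array it was 9.35, 9.26 and 9.26 in C and 8.98, 8.59 and 8.70 in PB at EV, and the groups did not overlap.

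Of the 4379 probes that fell from BV to H (3.71%), 360 were called higher in PB at EV (8.22%) and 26 lower (0.594%), and the median difference was 0.54. Their median log2 intensity was 10.80 in C at BV, 9.24 in C at EV, 9.95 in PB at EV and 7.60 in C at H. By array it was 8.68, 9.87 and 9.65 in C and 9.71, 9.96 and 10.17 in PB, so that replicate 2 of C overlapped PB. Without replicate 1 of C the median difference was 0.31. For both classes the PB level at EV was closer to the level at BV than the C level was.

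The size of this contrast varied with the arrays that set the ripening direction. With PB at BV and H, 10 of 3484 rising probes (2.95% of all probes) were called higher (0.287%) and 99 lower (2.84%), and 435 of 4352 falling probes (3.69%) were called higher (10%) and 14 lower (0.322%). The medians were -0.59 and 0.80. With C at BV and V at H, 135 of 6179 rising probes (5.24%) were called higher (2.18%) and 96 lower (1.55%), with a median of -0.072, and 309 of 6444 falling probes (5.46%) were called higher (4.8%) and 41 lower (0.636%), with a median of 0.21. The random-probe level was 6.15 ± 0.22 in C, 6.33 ± 0.27 in PB and 5.97 ± 0.06 in V at H (SD, n = 3 each), and its part in these values was not tested.

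**Figure D4:**
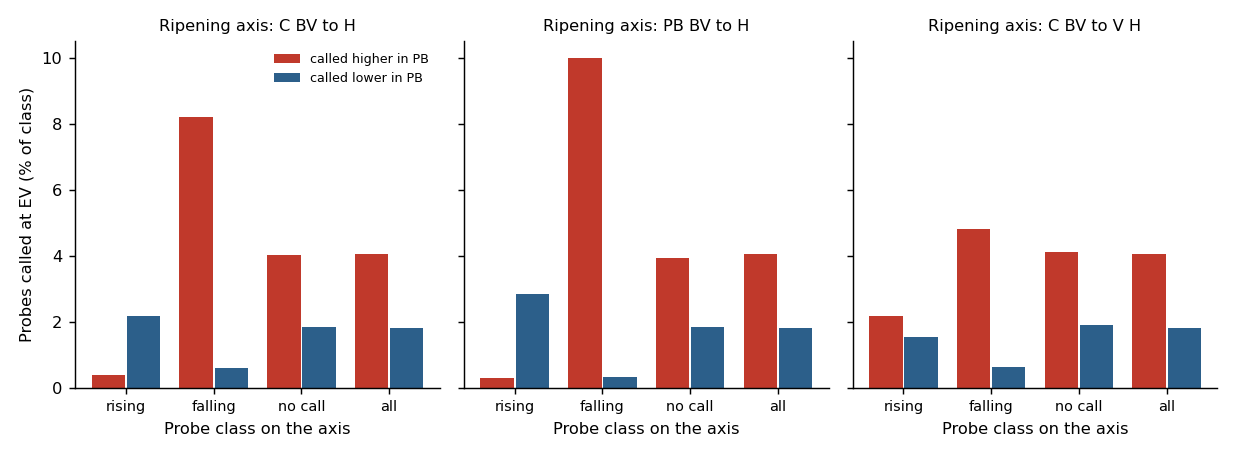
Share of probes called higher (red) and lower (blue) in PB at EV (y axis, percent of the class) for probes that rose, fell or were not called from BV to H, and for all probes (x axis). Panels set the ripening direction from C, from PB, or from C at BV and V at H, and falling probes were called higher in 8.22%, 10% and 4.8% of cases, beside 4.04% of all probes.

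PB and C were compared in the same way at the other stages. At BV 0 probes were called (limma, lowest adjusted p 1.00) and 3033 had an unadjusted p below 0.05. At H 0 were called (lowest adjusted p 1.00), with 5379 at an unadjusted p below 0.05. The difference between EV and BV was tested directly, and that between EV and H was not. In limma on 12 arrays, 6177 probes had a difference between PB and C at EV that differed from that at BV (5.23%). Of these, 4401 were more positive (3.73%) and 1776 more negative (1.51%) at EV. C at BV and C at EV carry different treatment texts. A change in the PB effect and that change of label set cannot be told apart here. The 6177 calls included 79.3% of the probes called higher at EV and 61.7% of those called lower. The lists were chosen on EV arrays that also enter this contrast, so high shares follow in part from that choice. The count was 31008 without replicate 2 and 3967 without replicate 3 of C at EV. It was 3942 without replicate 1 and 2679 without replicate 3 of C at BV, 2944, 3006 and 3529 without replicates 1, 2 and 3 of PB at BV, and 3054, 2724 and 3637 without replicates 1, 2 and 3 of PB at EV. PB and V at EV could not be told apart probe by probe, with 0 calls, a lowest adjusted p of 0.777 and 7542 probes at an unadjusted p below 0.05.

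At the other stages the called lists had small differences. The higher list had a median difference between PB and C of -0.14 at BV and -0.24 at H, negative for 69.7% and 65.5% of its probes, beside 49.6% and 51.8% of all probes. The lower list had a median of -0.016 at BV and of 0.49 at H, where 76.9% of its probes were positive, beside 48.2% of all. Across all 117999 probes the difference at EV correlated at -0.0756 with that at BV and at -0.253 with that at H, as a description over probes that share libraries.

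Probes numbered side by side on the array shared calls more often than probes in general. A directly adjacent probe was also called higher for 1506 of the probes called higher (31.6%), beside 7.6% of all probes, and also called lower for 351 of those called lower (16.4%), beside 3.54%. A neighbour called in the opposite direction occurred for 76 (1.59%) and 75 (3.5%). The correlation of the differences over probe pairs fell from 0.307 between adjacent probes to 0.187, 0.111 and 0.0531 at 2, 3 and 4 numbers apart. Whether adjacent numbers belong to 1 gene was not analysed here.

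The named probes were the 2 largest increases and the 2 largest decreases among called probes above the 95th percentile of the random-sequence probes on all 6 arrays. VitusP00212013 was higher in PB than in C. Its log2 intensity was 10.64, 10.13 and 11.02 on the C arrays and 13.95, 14.44 and 13.97 on the PB arrays at EV, without overlap. On replicate 1 of C it was barely over that percentile (10.64 against 10.61). The difference was 3.52 ± 0.38 (SE; 11.5-fold; limma adjusted p = 0.00425). At BV it was bright in both groups, at 14.05 ± 0.17 in C and 13.89 ± 0.10 in PB (SD, n = 3), and V at EV lay at 13.98. At H it was 12.48 ± 0.78 in C and 12.34 ± 1.56 in PB (SD, n = 3), and replicate 2 of PB, at 10.65, lay within the range of C at EV. None of the 7 probes numbered within 9 of it was called higher and 1 was called lower, with differences from -3.29 to 1.15.

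VitusP00130791 was also higher in PB than in C. It measured 10.75, 9.74 and 10.84 on the C arrays and 13.69, 14.05 and 13.87 on the PB arrays, with no overlap. On replicate 1 of C this too was close to the 95th percentile of the random-sequence probes (10.61). The difference was 3.43 ± 0.41 (SE; 10.7-fold; limma adjusted p = 0.0050). It stood at 13.87 in C and 13.81 in PB at BV and at 13.72 in V at EV, close to PB at EV in each case. At H it varied widely between arrays, with 11.25 ± 1.46 in C and 11.13 ± 2.43 in PB (SD, n = 3). Of the 6 probes numbered near it, 2 were also called higher.

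VitusP00009429 was lower in PB than in C. It measured 13.86, 12.02 and 13.65 on the C arrays and 8.75, 9.09 and 8.44 on the PB arrays, with replicate 2 the lowest of C. The difference was -4.42 ± 0.54 (SE; 21.4-fold lower; limma adjusted p = 0.00541). C and PB at BV had means of 8.95 and 8.96 and V at EV 8.54, all near PB at EV. At H it was 9.03 ± 0.93 in C and 10.89 ± 0.56 in PB (SD, n = 3), the other way round. Of its 8 near-numbered probes, 2 were called lower and 1 higher.

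VitusP00021772 was lower in PB than in C, with the widest spread in C. Its values were 13.65, 10.18 and 12.70 on the C arrays and 7.60, 8.31 and 7.42 on the PB arrays, still without overlap. The difference was -4.40 ± 0.85 (SE; 21.1-fold lower; limma adjusted p = 0.0191), close to the threshold. V at EV stood at 8.33. With the background level as a covariate the differences of the 4 named probes were 4.04, 4.37, -2.66 and -1.10, in the order given, and none was called. Without replicate 3 of C or without any one PB array none of the 4 was called either, at differences of 3.73, 3.62, -4.18 and -4.14 without replicate 3 of C. VitusP00021772 was also not called without replicate 1 of C (-3.66) or under MAD scaling (limma adjusted p = 0.0203).

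**Figure D5:**
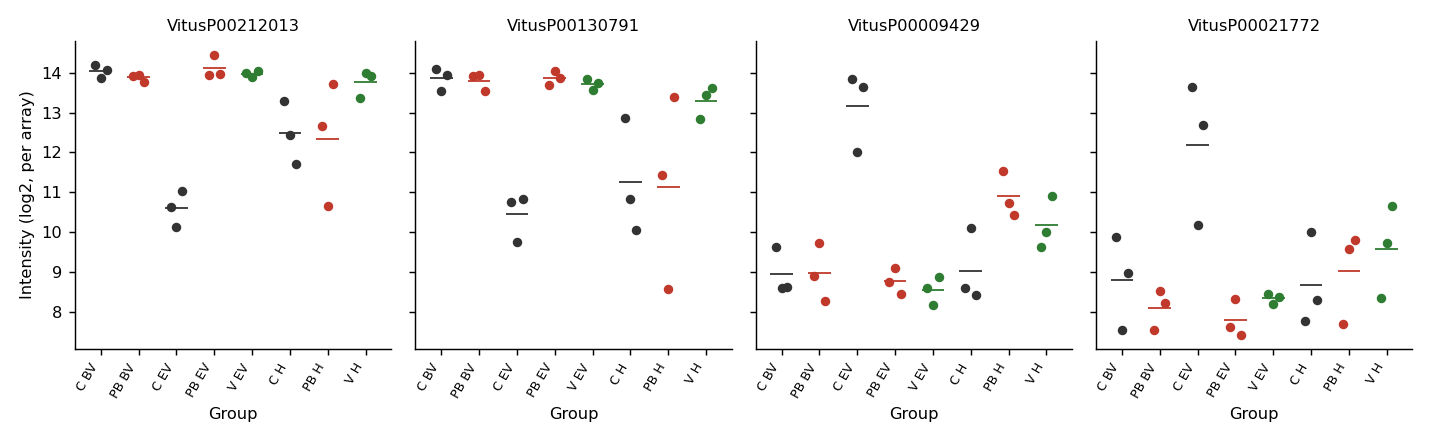
Log2 intensity (y axis) of the 4 named probes on each of the 24 arrays by treatment and stage (x axis), with points as arrays and lines as means of 3. For VitusP00212013 and VitusP00130791 the C arrays at EV lie at 11.02 or below, under every BV array and every PB and V array at EV, and for VitusP00009429 and VitusP00021772 they lie at 10.18 or above, over all those arrays.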

How the data were processed

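The authors deposited linear, already normalized fluorescence intensities for every probe for 24 one-colour NimbleGen Vitis arrays. The software for scanning, background correction and normalization is not given in the sources used here. Of 139363 rows, 137090 held values. Intensities were taken to log2 with no filter.

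PB and C at EV (3 arrays each) were compared with limma 3.58.1 (lmFit and eBayes, R 4.3.3) over all 117999 grapevine probes, and probes were called at 2-fold and p below 0.02 after Benjamini-Hochberg adjustment. SAM was computed over all 20 label permutations. Random-sequence probes were fitted separately. Level differences used exact permutation tests. The code was tested on simulated data. The number of arrays limits the precision.

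Members, lists and tests were chosen with earlier results of these data known. Bounds, the comparison of list medians with the random-probe level, and 5 further alternatives were chosen after seeing the data. Named probes were, among calls above the 95th percentile of random-sequence probes on all 6 arrays, the 2 largest changes in each direction, since no table gave gene names. No probe sequences were used here. Alternatives covered normalization, filters, samples in the fit, the replicate number as a block, weights, covariate, thresholds, log2(value + 50) and leaving out each array.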

Additional observations from a re-analysis of the deposited data

Results flagged for a closer look

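The difference between PB and C at EV differed from that at BV at 6177 probes in limma on 12 arrays, the test of the difference itself. C at BV and C at EV carry different treatment texts. A change in the PB effect and that change of label set cannot be told apart in this contrast. By probe, the effect at EV minus that at BV was 3.68 ± 0.43 (SE) for VitusP00212013 (limma adjusted p = 0.000743), 3.49 ± 0.48 for VitusP00130791 (adjusted p = 0.00153) and -4.43 ± 0.74 for VitusP00009429 (adjusted p = 0.00394). For VitusP00021772 the same difference was -3.70, with a limma adjusted p of 0.0519. These 4 probes were chosen for their difference at EV, and the same EV arrays enter this contrast. The p-values are therefore no separate support for the difference at EV. Without the 2 C arrays at EV of the highest random-probe level, replicates 1 and 3, the count was 4613, with the remaining C array assumed to vary like the other groups, although the C arrays at EV varied more than the PB arrays (1.01 against 0.45, root mean square SD). Groups of 3 were too small to test single arrays as outliers.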

How the results depend on the processing

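For PB against C at EV, the count of 6915 became 25784 (14423 higher, 11361 lower) with all 24 arrays in the fit, 54799 (28789 and 26010) with array weights, whose estimation did not converge, 27306 (16318 and 10988) by SAM, 16230 (9690 and 6540) at an adjusted p below 0.05, 3092 (596 and 2496) over probes above background on all 6 arrays, a filter that removes probes low in C, and 0 with the background level as a covariate (0 higher, 0 lower). With the replicate number as a block it was 2002 (1638 and 364). The labels give a replicate number but no block, so whether same-numbered arrays come from the same block is not known. Deviations of same-numbered arrays correlated at -0.023, -0.139 and -0.0181, which does not decide it. Leaving out 1 array gave 0 to 35903 calls (0 to 20121 higher, 0 to 15782 lower). Without C replicates 1 and 3 it was 7215, with the spread taken from the PB arrays alone (0.45, against 1.01 between the C arrays). MAD scaling gave 6501 and quantile normalization 6916, and they moved the median of all probes to -0.20 and -0.10.

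The 6177 calls for EV against BV became 2353 with 24 arrays, 4659 with the replicate block, 1172 with the covariate, 12878 at an adjusted p below 0.05 and 2679 to 31008 without 1 array. The 620 random-sequence calls became 2994 with 24 arrays, 0 with the replicate block and 0 to 4668 without 1 array. The median of rising probes was -0.072 on the axis to V at H and -0.66 under MAD scaling, beside -0.57 to -0.40 without 1 array. MAD scaling moved brightness tiers 1, 2 and 4 to -0.59, -0.27 and 0.11. Without 1 array tier 2 ranged from -0.046 to 0.031, with a change of sign without C replicate 1 (0.031) and without PB replicate 2 (0.0098), and tier 4 from 0.090 to 0.31. Non-overlap was 12375 of the 27196 probes above background on all 6 arrays (45.5%, beside 39.4% of all probes), with PB above at 2975 and below at 9400. That filter removes probes low in C, so this split is a description. The random-probe difference stayed negative under every alternative (-0.999 to -0.563). Over 17 alternatives for each of the 4 named probes, 45 kept their call, 23 lost it and 0 changed sign, with limma adjusted p from 2.44e-07 to 0.351. With the replicate block VitusP00021772 alone among them lost its call (adjusted p = 0.0299). The cause of these changes was not tested.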
